A study of Mus musculus with 28 samples.

Results

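Ribosome biogenesis was followed through 46 genes, chosen by symbol from the known parts of the pathway and matched to the Ensembl gene IDs of the deposited files. All 46 were found among the 55413 gene IDs, and all 46 passed the filter on low counts. Expression was measured by bulk RNA sequencing of CD3+ T cells, taken from mouse spleen by magnetic sorting (MojoSort), with 1 file per replicate and 28 libraries in all. The mice were healthy male C57BL/6J animals of 8 to 12 weeks. Untreated mice (NT, n = 7) were set against 4 groups that received 1 dose a day for 11 days. Mice of the PS group (n = 4) were injected under the skin with empty polymersomes, vesicles built from poly(ethylene glycol)-block-poly(propylene sulfide), at 60 mg polymer/kg. Mice of the rPS group (n = 5) were injected with the same vesicles carrying 1 mg/kg rapamycin. Mice of the R group (n = 6) were injected with 1 mg/kg rapamycin in 0.2% CMC, and mice of the RO group (n = 6) took 1 mg/kg rapamycin by gavage as Rapamune. No group analysed here was given the cellulose vehicle alone, and the label of NT names no injection or gavage.

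A ribosome is built in the nucleolus. RNA polymerase I transcribes the ribosomal RNA precursor, small nucleolar ribonucleoproteins (snoRNPs) modify it, and a chain of assembly factors cuts and folds it into the 40S and 60S subunits. Rapamycin inhibits mTOR complex 1, a kinase complex that promotes polymerase I transcription and ribosome production, and T cells raise ribosome production when they are activated. The transcription factor Myc is a known activator of many of these genes.

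Total counts were 4286897 to 15696546 per library, and levels are given as CPM (counts scaled to a common library size) after TMM scaling, as mean ± SD over libraries. The T cell marker Cd3e set 6 libraries apart, which were replicates 3, 4, 7 and 8 of NT and replicate 3 of both R and RO. There it was at 10.8 to 52.7 CPM, against 69.0 to 508 CPM in the other 22. The same 6 held 1934 to 4411 CPM of the macrophage gene Lyz2, against 19.4 to 630 CPM. The file of RO replicate 7 lists 0 for the genes beyond a point on chromosome 12 and for those on chromosomes 13 to 19, X, Y and M, among them 14 of the 46 genes, and it was left out for those 14. Counts and medians of the 46 genes are therefore also given without these 7 libraries, which leaves 3 NT libraries. Malat1 and mt-Rnr2, abundant transcripts listed at 16778 to 28337 and 1969 to 21811 CPM in the other 20 libraries, had a listed value of 0 in each of the 7 NT files and in that of RO replicate 7, so the way the files were made and the lack of treatment cannot be told apart in NT. In bulk samples, fewer cells of a type and less RNA per cell cannot be told apart.

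The comparison of rPS with NT asked how T cells changed under the loaded carrier. Of the 46 genes, 12 were higher in rPS than in NT and 0 were lower at an adjusted p under 0.05 (edgeR quasi-likelihood, Benjamini-Hochberg over 17182 genes). That is 26.1% of the genes, beside 11.0% of all tested genes that were called higher and 22.6% called in either direction. The median log2 fold change was 0.33, beside -0.01 over all tested genes, and 40 of the 46 values were above 0 (87.0%, beside 49.4%). The 12 genes cover RNA polymerase I (Polr1b, Ubtf), the nucleolar protein nucleolin (Ncl), the box C/D snoRNP (Nop56, Fbl), the small subunit processome and late 40S assembly (Nat10, Rrp12) and 60S assembly (Noc2l, Nop2, Rrs1, Bop1, Wdr12). Without the 7 libraries, 3 of the 46 were called higher (6.52%, beside 0.888% of all tested genes), namely Polr1b, Nop56 and Rrp12, and the median was 0.16 with 29 of 46 values above 0. A fit with 3 covariates for B cell, macrophage and red cell transcripts gave a median of 0.18 with 31 above 0.

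**Figure D1:**
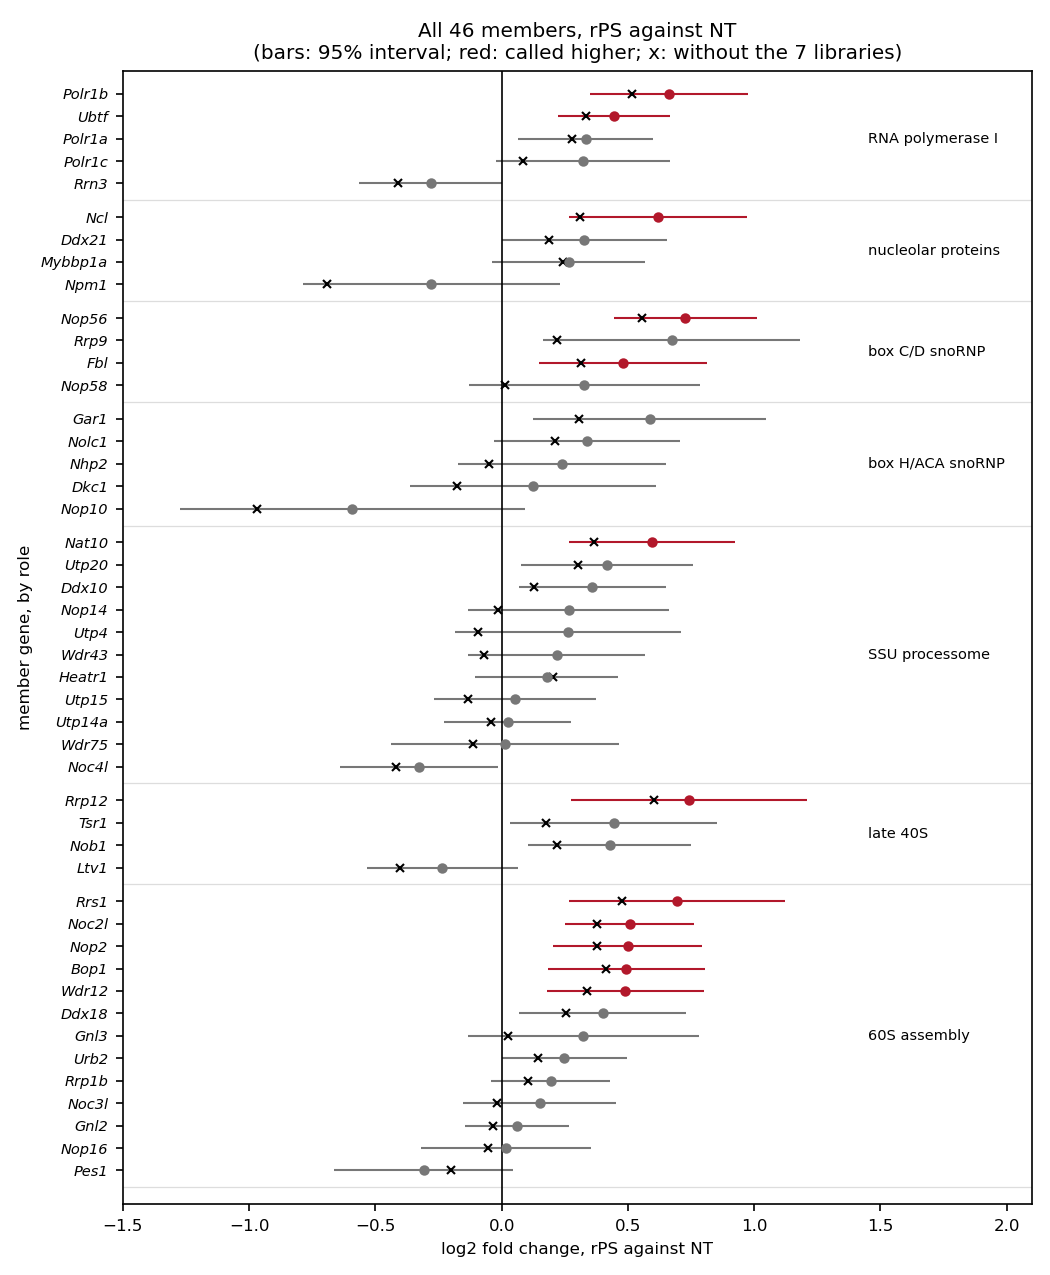
Log2 fold change of each of the 46 genes in rPS against NT (horizontal axis), grouped by role, with 95% intervals of the edgeR fit; colour shows whether the gene was called. The 12 called genes lie between 0.44 and 0.74, and 6 genes, none called, lie below 0.

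Nop56 (ENSMUSG00000027405.17), a core protein of the box C/D snoRNP that guides methylation of ribosomal RNA, had the smallest p. Its level in the 5 rPS libraries was 157, 143, 189, 226 and 162 CPM, and in NT its lowest, median and highest values were 91.9, 104 and 122 CPM. Every rPS library lay above every NT library. The log2 fold change was 0.73 ± 0.14 (SE, adjusted p = 0.00145, edgeR), a 1.65-fold difference. PS lay between, at 144, 139, 121 and 117 CPM, and overlapped both NT and rPS. R ran from 76.8 over a median of 124 to 140 CPM and RO from 85.7 over 122 to 142 CPM, so that the lowest rPS library stood above the highest R and RO libraries. Without the 7 libraries the 3 remaining NT values spanned 117 to 122 CPM, and the log2 fold change of 0.55 ± 0.13 kept its call (adjusted p = 0.0274, edgeR).

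Polr1b (ENSMUSG00000027395.16) encodes the second largest subunit of RNA polymerase I. It was at 65, 76.2, 65.2, 84.7 and 69 CPM in rPS and at 38.8, 43.7 and 55.3 CPM (lowest, median, highest) in NT. These groups did not overlap, and the log2 fold change was 0.66 ± 0.15 (adjusted p = 0.00466, edgeR). The 4 PS values of 60.1, 57.6, 57.8 and 61.9 CPM also lay above every NT value and below every rPS value, although neither PS against NT (0.38 ± 0.16, adjusted p = 0.108) nor rPS against PS (0.28 ± 0.18, adjusted p = 1) passed the edgeR test. R reached from 31 over a median of 63.0 to 71.1 CPM and RO from 39.9 over 64.3 to 67.9 CPM. Polr1b stayed called without the 7 libraries in rPS against NT, at 0.51 ± 0.12 (adjusted p = 0.0268, edgeR).

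The upstream sequences of these genes and of 2 further genes are shown because Nop56, Polr1b and Nop2 were called higher in rPS and Rrn3 was not, because Myc binds the E-box CACGTG, and because many housekeeping promoters hold the ETS core CGGAAG. The 250 bases before the RefSeq start (build GRCm38.p6, plus strand, read 5′ to 3′) are in lower case, with matches to either motif on either strand in capitals. The windows are chr2:130274162-130274411 for Nop56, chr2:129100746-129100995 for Polr1b, chr6:125131633-125131882 for Nop2 and chr16:13780449-13780698 for Rrn3.
Nop56: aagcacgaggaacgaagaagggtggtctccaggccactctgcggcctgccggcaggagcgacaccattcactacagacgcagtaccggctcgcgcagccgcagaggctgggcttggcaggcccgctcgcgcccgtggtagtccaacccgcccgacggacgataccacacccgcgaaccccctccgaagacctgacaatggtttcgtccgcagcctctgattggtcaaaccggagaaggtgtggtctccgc
Polr1b: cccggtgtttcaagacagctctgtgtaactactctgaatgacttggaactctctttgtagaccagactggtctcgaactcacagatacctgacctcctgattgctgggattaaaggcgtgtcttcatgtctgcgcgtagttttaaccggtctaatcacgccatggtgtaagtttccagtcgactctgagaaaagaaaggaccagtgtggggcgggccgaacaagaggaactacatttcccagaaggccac
Nop2: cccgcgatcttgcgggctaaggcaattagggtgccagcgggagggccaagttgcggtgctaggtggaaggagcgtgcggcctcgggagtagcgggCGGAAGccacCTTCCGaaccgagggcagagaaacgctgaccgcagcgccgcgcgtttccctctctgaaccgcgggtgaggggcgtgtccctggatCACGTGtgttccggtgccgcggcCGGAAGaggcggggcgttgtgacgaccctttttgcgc
Rrn3: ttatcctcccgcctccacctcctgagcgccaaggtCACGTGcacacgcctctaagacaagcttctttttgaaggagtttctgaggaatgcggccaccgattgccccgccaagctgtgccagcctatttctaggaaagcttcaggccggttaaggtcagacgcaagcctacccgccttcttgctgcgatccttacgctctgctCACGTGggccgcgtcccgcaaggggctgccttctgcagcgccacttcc
Nop56 and Polr1b held neither motif in these bases. Nop2 held an E-box that began 60 bases before the start, and 3 ETS matches. The last bases of its window, after the RefSeq start, were in no GENCODE M21 transcript of Nop2. Rrn3 held an E-box at 215 and another at 48 bases before the start.

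Promoter windows of 300 bases (250 before and 50 after the start) were at hand for 40 of the 46 genes. The E-box was found in 9 of the 40 (22.5%), beside 11.4% of tested genes and 8.09% of all genes with a window. In Nop2 and Rrn3 it lay before the start, and in the other 7 after it. Of the called genes 1 of 8 with a window held it, and of those not called 8 of 32. The ETS core, whose letters do not overlap those of the E-box, was found in 24 of the 40 (60.0%), beside 33.6% of tested genes and 18.8% of all genes. It was present in 4 of the 8 called and 20 of the 32 other genes. These matches describe letters only.

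Ubtf, the upstream binding factor that opens ribosomal DNA for polymerase I, was at 248, 293, 365, 239 and 272 CPM in rPS and at 182, 212 and 235 CPM (lowest, median, highest) in NT. The groups did not overlap, and the log2 fold change was 0.44 ± 0.11 (adjusted p = 0.00656, edgeR). The PS values of 247, 255, 257 and 274 CPM lay above all NT values as well. The other polymerase I genes were not called. Polr1a, the largest subunit, was at 140 ± 25.2 CPM in rPS and 111 ± 16.4 CPM in NT (0.33 ± 0.13, adjusted p = 0.0639), and Polr1c, a subunit shared with polymerase III, had a log2 fold change of 0.32. Rrn3, the factor that links growth signals to polymerase I at its promoter, was at 42.9 ± 8.55 CPM in rPS and 52.2 ± 9.48 CPM in NT, a log2 fold change of -0.28 ± 0.14 that was not called (adjusted p = 0.133, edgeR).

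Ncl, an abundant nucleolar RNA-binding protein, was at 578, 534, 683, 626 and 631 CPM in rPS. In NT it ran from 300.5 over a median of 365 to 535 CPM. The lowest rPS value fell just under the highest NT value, and the log2 fold change was 0.62 ± 0.17 (adjusted p = 0.014, edgeR). PS held 495, 415, 458 and 452 CPM and thus lay below all 5 rPS libraries. Among the 3 NT libraries left after removing the T cell-poor ones the mean of Ncl was 492 ± 40.1 CPM, against 397 ± 93.3 CPM in all 7, and the log2 fold change without the 7 libraries was 0.31 ± 0.15 (adjusted p = 0.226, edgeR). Npm1, nucleophosmin, a histone chaperone of the nucleolus, stood apart from Ncl. It was at 289, 323, 126, 252 and 191 CPM in rPS and at 189, 226 and 490 CPM (lowest, median, highest) in NT, so that the rPS range lay within or below the NT range (-0.28 ± 0.25, adjusted p = 0.425, edgeR). Npm1 has processed pseudogene copies, and how reads were shared among them is not stated for these files. The helicase Ddx21 and the Myb-binding protein Mybbp1a had log2 fold changes of 0.33 and 0.27 and were not called.

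Within the snoRNP proteins the called genes were both of the box C/D class. Fbl, fibrillarin, the methyltransferase of that particle, was at 116, 127, 98.1, 97.5 and 100 CPM in rPS and at 57.5, 69.7 and 100 CPM (lowest, median, highest) in NT. Only the top of the NT range reached into the rPS range, and the log2 fold change was 0.48 ± 0.16 (adjusted p = 0.0351, edgeR). Fbl was called under 3 of 9 alternative settings, and lost its call in 6 of the 28 fits that left out a library. Nop58, the partner of Nop56, was at 110, 83.8, 41.9, 89.9 and 76.6 CPM in rPS and 64.1 ± 15.2 CPM in NT and was not called (0.33 ± 0.22, adjusted p = 0.285, edgeR). Rrp9, the U3-specific protein, had 0.67 (adjusted p = 0.051). Of the 5 proteins around the box H/ACA snoRNP, which guides pseudouridylation, 0 were called. Dkc1, the pseudouridine synthase, spanned 28.7 to 83.5 CPM in rPS and 44.3 to 74.6 CPM in NT (0.12 ± 0.24, and -0.18 ± 0.22 without the 7 libraries), and Nop10, its small partner, had the lowest log2 fold change of the 46 genes, -0.59 ± 0.33 (adjusted p = 0.189, edgeR). Whether the snoRNP classes differed from each other was not tested.

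The small subunit processome, the particle that forms on the 5′ part of the precursor, gave 1 called gene of 11. That is 9.09%, beside 11.0% of all tested genes called higher. Nat10, an RNA cytidine acetyltransferase, was at 118, 102, 91.9, 114 and 93.1 CPM in rPS and at 53.3, 72.2 and 91.8 CPM (lowest, median, highest) in NT. The lowest rPS value and the highest NT value were almost equal, and the log2 fold change was 0.59 ± 0.16 (adjusted p = 0.012, edgeR). Heatr1, a large scaffold of the processome also needed for polymerase I transcription, did not pass (0.18 ± 0.14), with 151 ± 28.6 CPM in rPS and 133 ± 17.4 CPM in NT. The other 9 processome genes (Ddx10, Utp20, Noc4l, Nop14, Wdr43, Utp4, Utp15, Utp14a, Wdr75) lay between -0.33 (Noc4l) and 0.42 (Utp20).

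Among the 4 late 40S factors Rrp12 (ENSMUSG00000035049.5), which helps to export the pre-40S particle, was called. It was at 61.6, 64.2, 69.9, 58.4 and 61.2 CPM in rPS and ran from 25.4 over a median of 31.5 to 55.8 CPM in NT. The groups did not overlap, and its log2 fold change of 0.74 ± 0.23 was the highest of the 46 (adjusted p = 0.0226, edgeR). PS was at 49.8, 45.9, 56.1 and 62.1 CPM, overlapping both. Without the 7 libraries the value was 0.60 ± 0.14 (adjusted p = 0.029, edgeR), and with RO replicate 7 kept at its listed 0 the call was lost (adjusted p = 0.404). Nob1, the nuclease that makes the final cut of 18S RNA, was at 42.5 ± 5.72 CPM in rPS and 31.6 ± 6 CPM in NT and missed the threshold (0.43 ± 0.16, adjusted p = 0.0506, edgeR). Tsr1 had 0.44 and Ltv1 -0.23, and neither was called.

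Of the 60S assembly factors, the longest list, 5 of 13 were called higher (38.5%), beside 11.0% of all tested genes. Whether the roles differed from each other was not tested. Noc2l, a factor of early pre-60S particles, was at 147, 179, 234, 169 and 174 CPM in rPS and at 104, 130 and 144 CPM (lowest, median, highest) in NT, without overlap (0.51 ± 0.12, adjusted p = 0.00689, edgeR). Rrs1, which brings 5S RNA into the pre-60S particle, was at 44.7, 52.8, 68.1, 38.9 and 49.6 CPM in rPS and at 24.4, 30.4 and 40.8 CPM in NT (0.70 ± 0.21, adjusted p = 0.0204, edgeR). All but 1 of the rPS values of Rrs1 lay above the NT range.

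Nop2, a methyltransferase of 28S RNA, was at 78.3, 77.3, 94.7, 63.9 and 72.6 CPM in rPS and at 45.1, 55.0 and 65.0 CPM in NT (0.50 ± 0.14, adjusted p = 0.0173, edgeR). Again a single rPS library entered the NT range. Bop1, Wdr12 and Pes1 form the PeBoW complex, which is needed to mature 5.8S and 28S RNA, and 2 of the 3 were called. Bop1 was at 53.1, 80.1, 111, 89.9 and 83.8 CPM in rPS and 52.7, 57.1 and 67.2 CPM in NT (0.49 ± 0.15, adjusted p = 0.0229, edgeR).

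Wdr12 was at 56.5, 42.4, 31.7, 64.5 and 39.9 CPM in rPS and 27.1, 32.8 and 40.5 CPM in NT (0.49 ± 0.15, adjusted p = 0.0234, edgeR). Both overlapped NT through low rPS libraries, replicate 1 for Bop1 and replicates 4 and 7 for Wdr12, and each was called under 4 of the 9 alternative settings. Pes1 was at 71, 94.1, 49.8, 62.5 and 56.6 CPM in rPS and 59.1, 76.4 and 132 CPM in NT, with a log2 fold change of -0.31 ± 0.17 that was not called (adjusted p = 0.188, edgeR). The other 7 genes (Ddx18, Urb2, Rrp1b, Gnl3, Noc3l, Gnl2, Nop16) lay between 0.02 and 0.40, and 0 of them were called. In GENCODE M21, exons of Nop56 (with Idh3b), Noc2l (with Samd11), Wdr12 (with Carf) and Bop1 (with Mroh1) overlap a gene on the opposite strand, and Nop56 and Ncl also hold small RNA genes. The strand setting of the counting is not stated for these files, so reads of these pairs cannot be told apart.

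**Figure D2:**
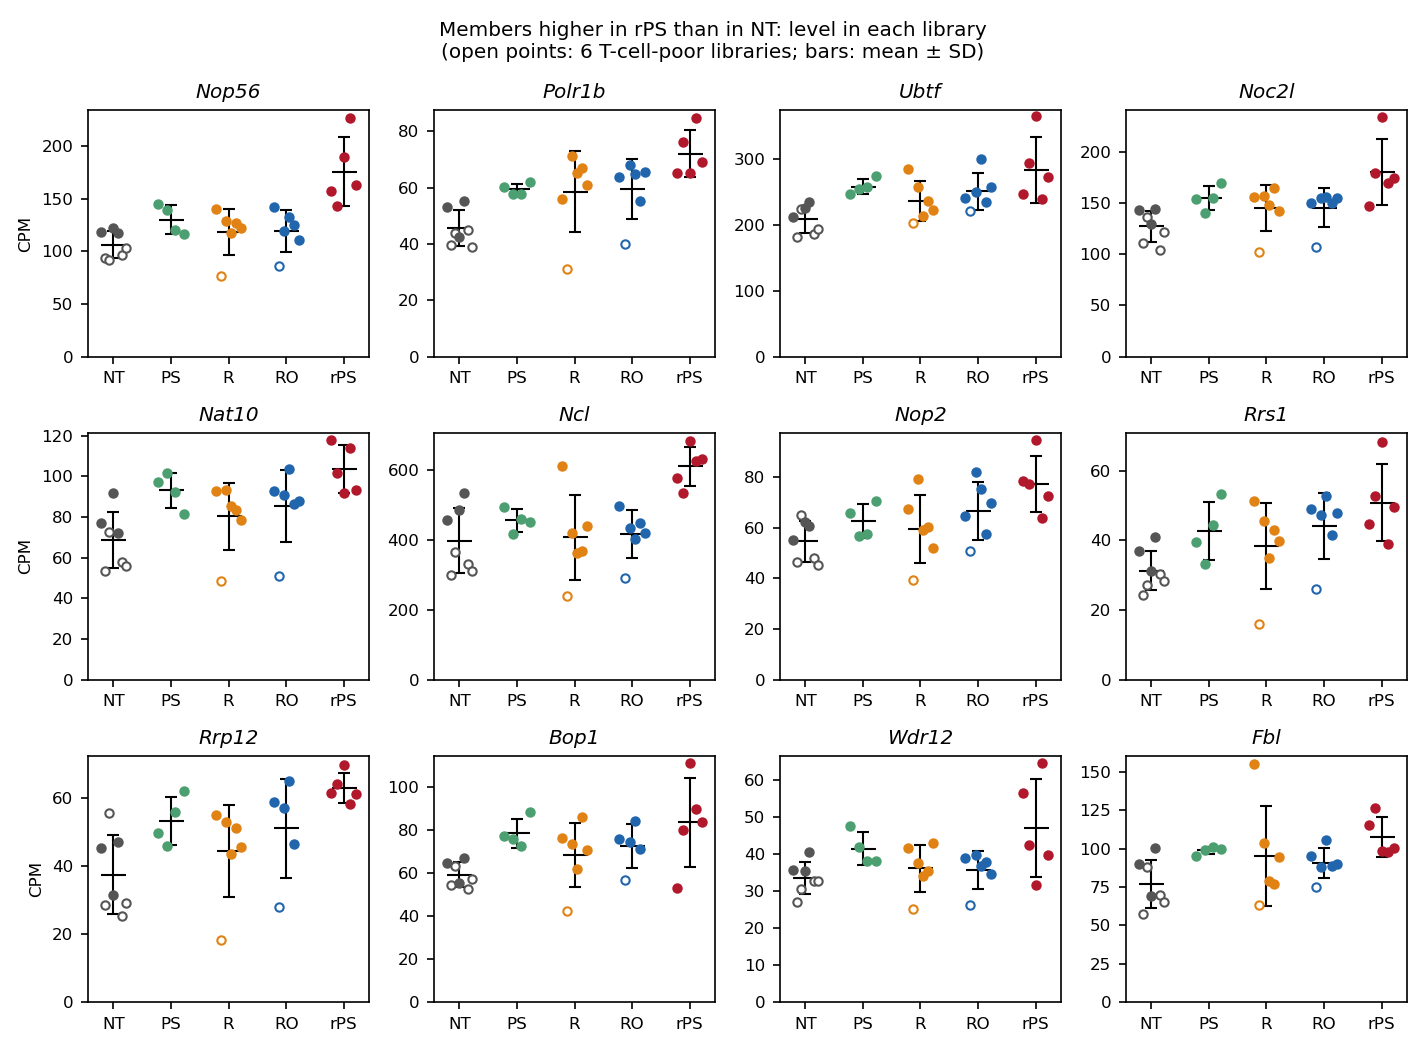
CPM of the 12 called genes in every library (points) by group, with group means as lines. Open points are the 6 T cell-poor libraries. The rPS points of Nop56, Polr1b, Ubtf, Noc2l, Nat10 and Rrp12 all lie above the NT points, and the other 6 genes overlap.

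Transcripts of other cell types differed in the same comparison. All 10 neutrophil markers, all 8 plasma cell markers and 4 of 10 monocyte and macrophage markers were called lower in rPS than in NT. Of 14 T cell markers 0 were called, with 13 log2 fold changes above 0 (median 0.53). The summed level of the T cell list ran from 342 over a median of 666 to 5478 CPM in NT. In rPS it ran from 1952 over a median of 2771 to 5046 CPM. The summed level of the neutrophil list ran from 20.3 to 3667 CPM in NT and from 5.59 to 55.8 CPM in rPS, with Ly6g at 0 in some library of both groups and Elane at 0 in some rPS library. The monocyte and macrophage list ran from 594 to 8627 CPM in NT and from 145 to 1709 CPM in rPS. The plasma cell list ran from 1115 to 5885 CPM and from 203 to 1143 CPM, with Tnfrsf17 at 0 in an rPS library. Of the other lists, 6 of 8 NK cell, 3 of 8 dendritic cell and 1 of 10 B cell markers were called lower, and 0 of 9 red cell and 0 of 9 pancreatic acinar markers were called. The fit with 3 covariates, given above, bears on the B cell, macrophage and red cell lists. The fit without the 7 libraries removes the 6 T cell-poor ones, which differed in Cd3e, Lyz2 and the neutrophil gene S100a8. S100a8 was at 14.8 to 249 CPM in those 6, against 0.532 to 13.7 CPM in the other 22. The part of each list on its own was not tested. Of the 46 genes, 44 had a lower mean in NT replicates 3, 4, 7 and 8 than in NT replicates 2, 5 and 6. The same count over all tested genes is not given here, so it is not read as a trait of the 46 genes. In the fit without the 7 libraries Rrn3, Npm1 and Nop10 lay further below 0, at -0.41, -0.69 and -0.97, with none called. These values rest on NT replicates 2 and 6, which lay above every rPS library for each of these genes. NT replicate 5 lay within the rPS range. Npm1 was at 458.5 and 489.6 CPM in NT replicates 2 and 6, against 195.0 CPM in NT replicate 5. For Nop10 the values were 49.37 and 46.53 against 12.96 CPM, and for Rrn3 62.88 and 66.6 against 41.96 CPM.

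The comparison of rPS with PS held the carrier constant and asked about the drug. Of the 46 genes 0 were called, beside 0.0931% of all tested genes. At an unadjusted p under 0.05 there were 3 (edgeR), beside 880 of all 17182 tested genes, and DESeq2 called 0 (0.297% of all tested genes). The median was 0.17, beside 0.03 over all genes, and 42 of 46 values were above 0 (91.3%, beside 54.6%). It was 0.12 (37 above 0) with 3 covariates and 0.06 (29 above 0) with the replicate number as a block. Replicate numbers follow the sort order of the sample names in the labels, separately in each group. Equal numbers thus join libraries that the labels do not link, and the block is an arbitrary factor. The 7 libraries hold no PS or rPS mouse, and the median without them was 0.17. The 5 genes with the smallest p were Noc4l (-0.46 ± 0.17), Nop56 (0.43 ± 0.16), Ncl (0.42 ± 0.20), Ddx18 (0.37) and Ddx10 (0.30), with adjusted p from 0.682 to 1 (edgeR). The 95% interval of Nop56 reached from 0.10 to 0.76.

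PS against NT asked about the empty carrier. In it 0 of the 46 genes were called by edgeR, beside 7.23% of all tested genes, and 0 by DESeq2, beside 18.3%. At an unadjusted p under 0.05 there were 11 of 46 (edgeR), beside 5552 of all 17182 tested genes. The smallest p belonged to Ubtf (0.31 ± 0.12), Gnl3 (0.62 ± 0.24), Pes1 (-0.49 ± 0.19), Nat10 (0.44 ± 0.17) and Bop1 (0.40 ± 0.16), with adjusted p from 0.0759 to 0.0921. The median was 0.13 with all libraries and -0.10 without the 7, so the direction of the list turned with the NT mice used. With 3 covariates it was 0.01. A fit of PS and NT alone called 3 of the genes (Bop1, Polr1b and Gnl3), beside 4.73% of all genes called higher in that fit.

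R and RO against NT asked about rapamycin without the carrier. In R against NT 0 of 46 were called by edgeR, beside 0.838% of all tested genes, and 0 by DESeq2, beside 2.93%. At an unadjusted p under 0.05 there was 1 (Polr1b, 0.36 ± 0.15, adjusted p = 0.249, edgeR), beside 2461 of all 17182 tested genes. The next smallest p belonged to Fbl (0.31), Nob1 (0.29), Pes1 (-0.31) and Ltv1 (-0.24). In RO against NT 0 were called by edgeR, beside 0.0116% of all tested genes, and 0 by DESeq2, beside 1.73%. At an unadjusted p under 0.05 there were 4 (edgeR), beside 2506 of all 17182 tested genes. The 4 were Polr1b (0.39), Ubtf (0.27), Rrs1 (0.49) and Nop2 (0.28), and Nat10 came next (0.31). The medians were 0.05 for R and 0.12 for RO, and -0.03 and 0.02 without the 7 libraries. With 3 covariates they were -0.05 and 0.05. Directly compared, R and RO differed in 0 of 46 genes by edgeR (0.0% of all tested genes) and in 0 by DESeq2, beside 0.0873%. At an unadjusted p under 0.05 by edgeR there were 0, beside 571 of all 17182 tested genes. The median was -0.04, and 0.0006 without the 7 libraries. The smallest p was that of Urb2 (-0.24), followed by Ltv1 (-0.22), Nop2 (-0.16), Rrs1 (-0.19) and Utp4 (0.20). The 4 comparisons with NT (rPS, PS, R and RO) share the same NT libraries.

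The loaded carrier was also set against the same rapamycin dose in the other forms. In rPS against R 0 of the 46 genes were called (0.0116% of all tested genes). At an unadjusted p under 0.05 there were 9 (edgeR), beside 1965 of all 17182 tested genes. The median was 0.22 with 43 values above 0, beside -0.01 and 49.2% over all tested genes. Without the 7 libraries it was 0.12 with 36 above 0, beside 0.02 and 53.7%. Nop56 was 0.57 ± 0.14 (95% interval 0.27 to 0.86, adjusted p = 0.181, edgeR), and Ncl was 0.58 ± 0.18 (adjusted p = 0.246). Nop2 (0.37), Noc2l (0.32) and Wdr12 (0.38) followed. In rPS against RO 0 were called (0.0233% of all tested genes). At an unadjusted p under 0.05 there were 5 (edgeR), beside 1559 of all 17182 tested genes. Over all tested genes the median was 0.0006, and over the 46 genes it was 0.20. That median was 0.12 without the 7 libraries, 0.11 with 3 covariates and 0.09 with the arbitrary replicate block. Nop56 was 0.56 ± 0.14 (95% interval 0.26 to 0.85, adjusted p = 0.166, edgeR), Ncl 0.56 ± 0.18, Wdr12 0.40, Noc2l 0.31 and Noc4l -0.38. DESeq2 called Nop56 in both comparisons and no other of the 46, beside 0.338% of all genes called higher against R and 0.303% against RO. The fit with 3 covariates called Ncl and Nop56 against R (beside 0.326%) and Nop56 against RO (beside 0.064%).

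Whether adding the drug to the carrier differed from giving the injected drug to untreated mice was tested as an interaction, (rPS - PS) against (R - NT). It called 0 of 46 genes by edgeR (0.0175% of all tested genes) and 0 by DESeq2, beside 0.0873%. At an unadjusted p under 0.05 by edgeR there was 1, beside 863 of all 17182 tested genes. The smallest p belonged to Utp14a (0.40 ± 0.18), Pes1 (0.49 ± 0.26), Noc4l (-0.41 ± 0.22), Gnl3 (-0.54 ± 0.33) and Ncl (0.39 ± 0.26), each with an adjusted p of 0.901 (edgeR). For Nop56 the interaction was 0.27 with a 95% interval of -0.15 to 0.70. The median over the 46 genes was 0.14, and 0.20 without the 7 libraries, 0.22 with 3 covariates and 0.05 with the arbitrary replicate block.

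**Figure D3:**
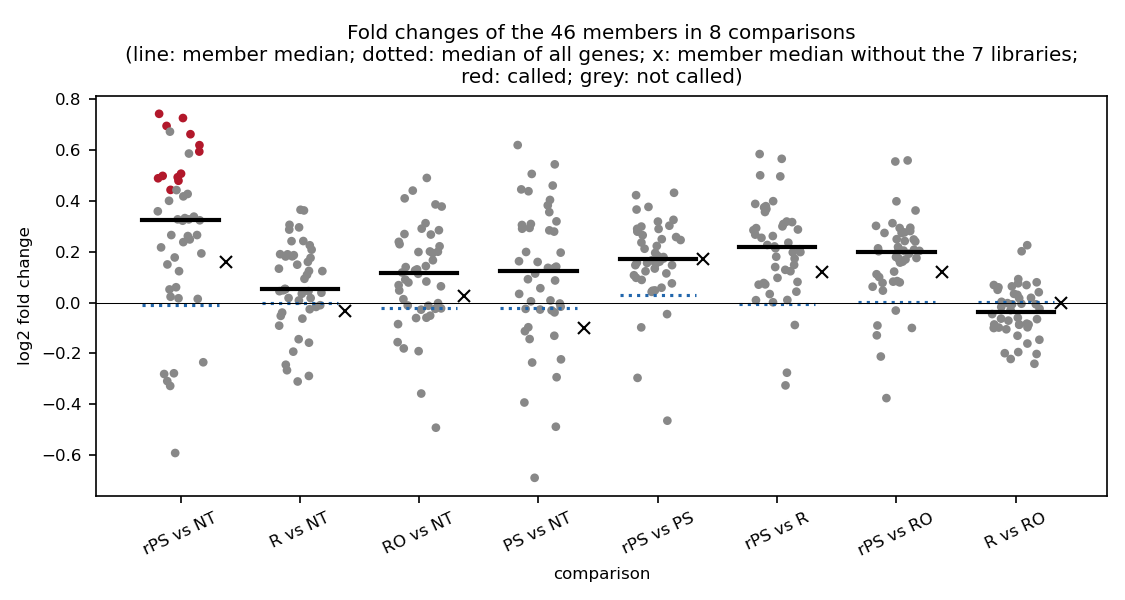
Log2 fold changes of the 46 genes (points) in each comparison, with their median (line), the median of all tested genes (dotted line) and the genes' median without the 7 libraries (x); red points are called. Called genes appear in rPS against NT alone under these settings, and the x of PS against NT lies below 0.

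Single libraries differed in how the 46 genes stood within them. Each gene's log2 CPM was set against its own mean over libraries, and the median over the genes was taken per library. It was lowest in R replicate 3 (-0.67), NT replicate 3 (-0.41) and RO replicate 3 (-0.34), which are among the T cell-poor libraries, and highest in rPS replicates 2, 5 and 1 (0.33, 0.31 and 0.30). R replicate 3 was the lowest of its group for 41 of the 46 genes and RO replicate 3 for 37. The spread between libraries, as the median coefficient of variation, was 19.4% in NT, 8.2% in PS, 24.3% in R, 14.5% in RO and 18.8% in rPS.

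The rPS libraries were not uniform either. Replicate 5 had the lowest rPS values of the B cell, macrophage and red cell covariates, at -2.69, -2.66 and -2.79 (mean log2 CPM, centred over libraries). It held the highest rPS values of Nop56 (226 CPM), Polr1b (84.7 CPM), Polr1a (183 CPM) and Wdr12 (64.5 CPM). It was the highest of its group for 12 of the 46 genes and the lowest for 7. The part of cell content in this was not tested. Replicate 4, the shallowest library at 4286897 counts, was the lowest of its group for 24 of the 46 genes and the highest for 11. It held the highest rPS values of Ubtf (365 CPM), Noc2l (234 CPM), Ncl (683 CPM), Bop1 (111 CPM), Nop2 (94.7 CPM) and Rrs1 (68.1 CPM). It also held the lowest of Npm1 (126 CPM), Dkc1 (28.7 CPM), Nop58 (41.9 CPM), Nop10 (5.95 CPM) and Rrn3 (31.2 CPM). The part of depth in this split was not tested. Without that library 11 genes were called in rPS against NT, of which 8 were among the 12, and Bop1, Nop2, Rrp12 and Rrs1 lost their call.

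**Figure D4:**
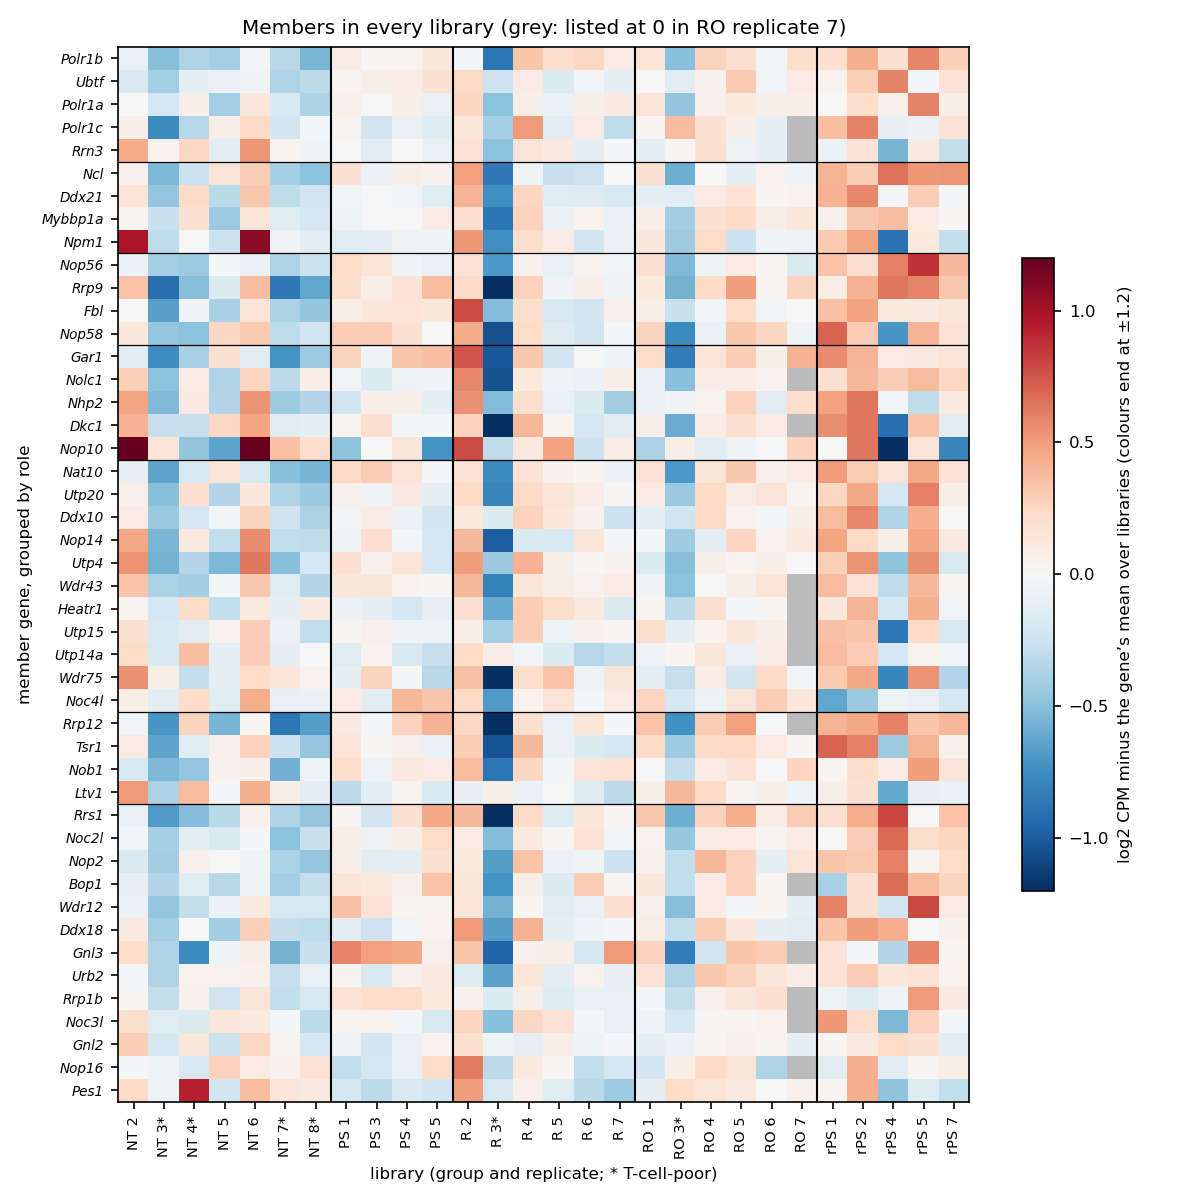
Log2 CPM of each of the 46 genes (rows, by role) minus the gene's mean, in every library (columns, by group); colours end at ±1.2. R replicate 3 and NT replicate 3 are mostly low, and rPS replicate 4 mixes high and low genes.

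Other genes of the pathway, listed by role, were counted in the same way. Of 130 tested, 27 were called higher in rPS than in NT (20.8%) and 2 lower, with a median of 0.17. Over all 17182 tested genes 11.0% were called higher and 1994 genes lower. The smallest p among those higher belonged to Bysl (0.75), Aatf (0.52), Ddx51 (0.49) and Las1l (0.65). Bysl is a 40S maturation factor, Aatf a processome factor, Ddx51 a 60S helicase and Las1l a 60S processing endonuclease. Pno1 (-0.67) and Utp23 (-0.56), both of the 40S branch, were lower. On the smaller set of libraries 1 of the 130 was called higher (Ddx27, 0.42) and 0 lower, with a median of 0.05. That fit called 0.888% of all tested genes higher (151 of 16998), so 1 of 130 is near that share. In PS against NT 3 were higher (Ddx51 0.43, Zfp622 0.51, Nsun5 0.57) and Ddx52 was lower (-0.41), and without the 7 libraries 0 of the 130 were called. Over all 17182 tested genes 580 were called higher and 663 lower in PS against NT. In the other 7 comparisons 0 of the 130 were called by edgeR, with between 1 and 22 at an unadjusted p under 0.05. The counts over all tested genes at that p stand with each comparison above.

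The proteins of the finished ribosome form a separate list. Of 40 cytosolic ribosomal protein genes 0 passed when rPS was set against NT, where their median was 0.03. At an unadjusted p under 0.05 there was 1 (edgeR), beside 6590 of all 17182 tested genes. On the smaller set of libraries their median was -0.51, beside a median of 0.16 for the 46 genes. In that fit 2 of the 40 were called lower, beside 391 of all 16998 tested genes. In rPS against PS their median was 0.33 with 39 of 40 above 0, beside 54.6% of all tested genes, and 0 were called. Genes of mitosis, a readout of dividing cells, were lower. All 20 were called lower in rPS than in NT, with a median of -1.98 (Mki67 -2.03 ± 0.36), and 14 without the 7 libraries. In rPS against PS 0 of the 20 were called (median -1.13), with 16 at an unadjusted p under 0.05 (edgeR). Whether these lists differ from the 46 genes was not tested.

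Among 17 tested regulators of the pathway 4 were called higher and 2 lower in rPS against NT. Myc was at 137 ± 60.6 CPM in rPS (71.7 to 232) and 65.3 ± 30.3 CPM in NT (40.1 to 110), which overlapped, with a log2 fold change of 1.06 ± 0.34 (adjusted p = 0.0275, edgeR). Maf1, a repressor of polymerase III that acts when mTOR is inhibited, was higher by 0.51, Rptor, the mTOR complex 1 scaffold, by 0.46 and the translation repressor Eif4ebp2 by 0.33. Mxd1, an antagonist of Myc, was at -1.78 and Eif4ebp1, a paralog of Eif4ebp2, at -1.64, both called lower. Mtor itself (0.23 ± 0.09, adjusted p = 0.0714) and Trp53 (0.16 ± 0.19) were not called. In rPS against PS 0 of the 17 were called by edgeR, with 1 at an unadjusted p under 0.05 (Maf1, 0.39), and Myc was 0.62 ± 0.39. In PS against NT Rptor was called higher (0.46) and Mxd1 lower (-2.06). Without the 7 libraries 0 of the 17 regulators were called in either comparison with NT. Mxd1 was then at -0.31 in rPS and -0.60 in PS, Eif4ebp1 at -0.19 in rPS, Myc at 0.66 in rPS and Rptor at 0.33 in both. In NT replicates 3, 4, 7 and 8 Mxd1 was at 210.0 to 472 CPM, against 43.7 to 140 CPM in the other 3 NT libraries, and Eif4ebp1 at 24.3 to 55.2 CPM against 7.28 to 9.80 CPM.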

How the data were processed

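The deposited files hold expected counts per Ensembl gene ID, and fractions made up 21.3% to 25.0% of each library's nonzero values. The tools named per the submitters' processing notes are Trimmomatic 0.39, STAR 2.7.5a, Cuffdiff and Cufflinks 2.1.1, on build GRCm39. The tool that made the counts is not given in the sources used here, nor are its annotation and strandedness. Symbols came from GENCODE M21, which matched 52082 of 55413 IDs. Counts were rounded and tested in R 4.3.3 with edgeR 4.0.16 (two-sided robust quasi-likelihood test, TMM, filterByExpr by group) in 1 fit of 5 groups. Genes listed at 0 in RO replicate 7 were fitted on the other 27 libraries, and the p-values were joined and adjusted over 17182 genes.

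Groups came from the labels, which give each library a replicate number and a sample name. They do not say which animal a library came from. P-values therefore measure the spread between these samples, which may be in part technical. No library repeated another (lowest chi-square per gene 3.55). A count of 0 allows up to 3 counts, or 0.191 to 0.7 CPM, for counting error only. The 46 genes and the other lists were chosen with earlier results of these data known. Of 345 list symbols 4 were not matched. Named with values were the called genes (at most 12 per comparison by p), otherwise the 5 with the smallest p, and 14 fixed genes. Promoter sequences are from RefSeq (GRCm38.p6), another build than the counts, and matched 40 of 46 genes. Alternatives were DESeq2 1.42.0, its size factors in edgeR, no filter, the compared groups only, a replicate block, 3 covariates (mean log2 CPM of the marker lists for red cells, B cells and macrophages), RO replicate 7 kept or left out, no T cell-poor libraries, and each library left out. On simulated data for rPS against NT (16956 genes), 63% of 2-fold and 88% of 4-fold changes were recovered.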

Additional observations from a re-analysis of the deposited data

Results flagged for a closer look

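In 9 of 100 tested groups of 4 to 7 libraries, 1 library lay far from the others for a named gene (Dixon's test at 95%, which chance meets in about 5% of groups). R replicate 3, which held little Cd3e, was low for Nat10 (48.5 CPM, the others 78.5 to 93.2), Noc2l (101.9 CPM, the others 142 to 164), Nop56 (76.8 CPM, the others 117 to 140) and Rrp12 (18.3 CPM, the others 43.6 to 55.0). RO replicate 3, also poor in Cd3e, was low for Dkc1 (35.4 CPM, the others 56.5 to 61.4), Nat10 (51.0 CPM, the others 86.2 to 103), Noc2l (106 CPM, the others 149 to 156) and Polr1a (87.1 CPM, the others 125 to 136). NT replicate 4 was high for Pes1 (132 CPM, the others 59.11 to 89.97).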

How the results depend on the processing

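In rPS against NT, 12 genes were called. Other settings called 17 (DESeq2), 14 (DESeq2 size factors), 9 (no filter; also RO replicate 7 kept), 8 (compared groups only), 12 (RO replicate 7 left out), 8 with 3 covariates (7 higher, and Noc4l lower at -0.52) and 3 (without the 7 libraries, median 0.16). Leaving out each library gave 10 to 18. It was 10 without NT replicate 3 or rPS replicate 5, and 18 without NT replicate 6 or R replicate 3. Over all genes, 1895 of 17182 were called higher in the main fit, 2233 with DESeq2 and 1909 with its size factors. No filter gave 1293 of 32916, RO replicate 7 kept 987 of 17182 and the compared groups only 431 of 15690. RO replicate 7 left out gave 1814 of 17132, 3 covariates 951 of 17182 and the fit without the 7 libraries 151 of 16998. For the fits without 1 library this share is not given here. Nop56 and Polr1b kept their call under all 9 of these alternatives (the replicate block included) and in all 28 fits without a library. With all genes, 542 instead of 3889 were called without the 7 libraries, and in PS against NT 2 instead of 1243.

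For rPS against R, DESeq2 called 1 (Nop56) and 3 covariates 2 (Ncl 0.57, Nop56 0.46). For rPS against RO, both called 1 (Nop56). For PS against NT the compared groups alone called 3, and leaving out each library gave 0 to 4, with 4 without R replicate 3, 3 without NT replicate 5, 2 without RO replicate 3 and 1 without rPS replicate 4. R and RO against NT gave 0 to 1 (Polr1b, without R replicate 3 and without RO replicate 3), and the other 5 comparisons 0 to 0. The median of PS against NT was -0.10 without the 7 libraries. The causes were not tested. Over all named genes and settings 6372 of 6660 values kept their direction and side of the threshold, 40 lost the call and 29 gained it. A further 219 values, called in neither fit, changed sign (17 of 180 without the 7 libraries, Dkc1 in rPS against NT and Ncl in R against NT among them), and no called value did.

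With the replicate number as a block, 10 genes were called in rPS against NT, all higher, beside 1041 of all 17182 tested genes called higher. Of 41 same-numbered pairs of libraries from different groups, 15 deviated together with r over 0.1 (range -0.39 to 0.8, median 0.05). The numbers follow the sort order of the sample names in the labels, and not every pair deviated together. They were therefore not taken to pair the libraries, and the block is an arbitrary factor. Of 27 libraries with a same-numbered partner, 8 correlated best with their own number.

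Library depth (4286897 to 15696546 counts) and the 3 NT libraries left without the 7 limit the precision, and a gene that missed the threshold is not shown to be equal between groups.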
